A study of Mus musculus with 6 samples.

Results

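The mouse miR-290 to miR-295 cluster was described in pluripotent embryonic stem cells (ESCs) and in neuronal cells (NCs). Its members were taken by name as mir-290a, mir-291a, mir-291b, mir-292, mir-292b, mir-293, mir-294 and mir-295, and all 8 were found among the 898 microRNA (miRNA) genes of the table. Small RNAs had been sequenced from E14Tg2a, a single established mouse ESC line, in 3 libraries per group, and the labels put each library in its group. ESCs were kept with leukemia inhibitory factor (LIF), a cytokine that maintains pluripotency. NCs were the same line grown without LIF and with 1 μM retinoic acid (RA) for 48 hours. Both groups grew as monolayers in serum-containing medium, and each RNA sample came from a pair of plates.

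A miRNA gene is transcribed as a hairpin, from which a mature strand of the 5′ arm (5p) or the 3′ arm (3p) is loaded into a silencing complex. The strand pairs with target mRNAs mainly through its seed, bases 2 to 8 from the 5′ end. The miR-290 to miR-295 cluster is made as 1 primary transcript and is known as the leading miRNA cluster of mouse ESCs, where pluripotency factors drive it and its products promote the rapid ESC cell cycle.

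The 8 hairpins span 2216 bp of chromosome 7 (mouse build GRCm38, the same assembly as mm10). mir-290a (Mir290a, chr7:3218626-3218708, plus strand) is first and lies within no other gene of GENCODE M21. mir-291a (chr7:3218919-3219000), mir-292 (chr7:3219189-3219270), mir-291b (chr7:3219482-3219560), mir-293 (chr7:3220343-3220422), mir-294 (chr7:3220641-3220724) and mir-295 (chr7:3220773-3220841) follow on the plus strand. These 6 lie inside an untranslated exon of Nlrp12, which is read from the opposite strand. mir-292b (chr7:3219198-3219259) is on the minus strand, inside the mir-292 hairpin.

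RefSeq (GRCm38.p6) held 15 mature arms of the 8 members and an arm of 740 of the 898 miRNA genes; miR-292a-3p was not matched. The 3p arms are shown first, because their seeds divide the cluster, with the seed in capitals. The seeds of miR-291a-3p, miR-294-3p and miR-295-3p are identical.
miR-291a-3p: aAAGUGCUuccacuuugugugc
miR-294-3p: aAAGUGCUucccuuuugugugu
miR-295-3p: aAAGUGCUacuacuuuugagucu
miR-290a-3p: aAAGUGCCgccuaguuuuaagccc
miR-291b-3p: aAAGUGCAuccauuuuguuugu
miR-293-3p: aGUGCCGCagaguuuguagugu
The first 6 bases of the seed are shared by miR-290a-3p, miR-291b-3p and those 3, and the seed of miR-293-3p differs. The 5p arms fall into other groups, of which the largest, with miR-290a-5p, miR-292a-5p and miR-293-5p, joins the hairpin of the distinct 3p seed to others of the cluster.
miR-290a-5p: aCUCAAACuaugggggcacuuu
miR-292a-5p: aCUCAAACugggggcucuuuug
miR-293-5p: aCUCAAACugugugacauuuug
A second pair of 5p arms is shown because reads from it could be counted for either gene. miR-291a-5p and miR-291b-5p share an unbroken run of 20 nucleotides.
miR-291a-5p: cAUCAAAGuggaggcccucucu
miR-291b-5p: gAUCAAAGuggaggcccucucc
The table gives 1 value for each hairpin gene, so no value below belongs to a single arm. The mature arms are 21 to 24 nucleotides long, and levels of different members were compared without a correction for length.

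Values are the authors' group means of normalized read counts, that is, read counts corrected for the depth of each library by a size factor. A mean of 3 normalized libraries is a sum of whole reads, each worth a fixed step, so the reads of single libraries could be found where only 1 set of whole numbers gave the mean. Reads were found in this way for 536 of 549 miRNAs above 0 in ESCs and for 583 of 602 in NCs, which held 20.1% and 11.2% of the summed signal. The labels number the replicates of each group, but the recovered reads could not be matched to those numbers, and the libraries are called A, B and C, from the largest size factor to the smallest, which went from 1.62 to 0.547 in ESCs and from 2.31 to 0.585 in NCs. In both groups the shallowest library, C, stood apart. Over miRNAs whose mean was 100 or more, the standard deviation of log2(C over the mean of A and B) was 1.42 in ESCs (144 miRNAs) and 1.13 in NCs (143 miRNAs), against 0.199 and 0.173 for log2(A/B). The groups were checked against miRNAs with known roles. mir-302a, a pluripotency miRNA, had a mean of 299 in ESCs and 15.05 in NCs, and mir-10a, a Hox-cluster miRNA responsive to RA, had 2136 and 754551. Of the neuronal miRNAs, mir-9-1 had means of 423 and 768 (adjusted p = 0.0784, limma-voom) and was not called. mir-124-1 had 2.44 and 5.25, and its ESC mean is below 3.51, the mean that 3 reads in every ESC library would give.

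In ESCs the cluster was one of the main components of the miRNA pool. Its members summed to 137250 normalized counts, 11.9% of the signal of all miRNAs. In NCs they summed to 31395, or 1.96%, so the summed level was 4.37-fold lower (log2 ratio -2.13). mir-10a alone took 47.1% of the NC signal and 0.185% of the ESC signal. Without mir-10a in the total the cluster held 11.9% in ESCs and 3.70% in NCs. Group means carry no spread, so these values have no test. In such bulk samples, fewer cells that make a miRNA and less of it per cell cannot be told apart.

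**Figure D1:**
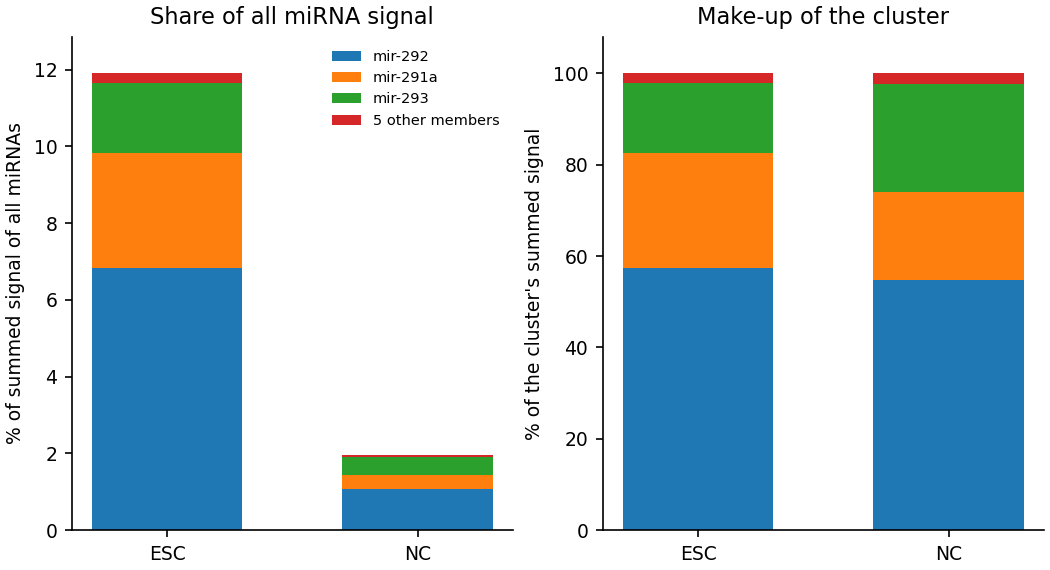
Stacked bars of the authors' group means. Left, percent of the summed signal of all miRNAs held by mir-292, mir-291a, mir-293 and the 5 other members in ESCs and NCs; right, the same values as percent of the cluster's own sum. The total share is 11.9% in ESCs and 1.96% in NCs, and mir-292 holds the largest part of the cluster in both.

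Levels within the cluster were very unequal. mir-292, mir-291a and mir-293 together held 97.8% of its signal in ESCs and 97.6% in NCs. mir-292 alone had a mean of 78854 in ESCs and was the fourth most abundant of all miRNAs there, and in NCs its mean was 17207 (rank 13). It made up 57.4% of the cluster in ESCs and 54.8% in NCs. mir-291a, which carries the seed shared with mir-294 and mir-295, had means of 34392 and 6000 (ranks 7 and 23). mir-293, with the distinct 3p seed, had 20987 and 7432 (ranks 9 and 22). In the group means mir-291a was thus above mir-293 in ESCs (25.1% against 15.3% of the cluster) and below it in NCs (19.1% against 23.7%). Library C weighs on the NC means of this pair, the ESC libraries of both are unresolved, and whether their order changed in single libraries is not known.

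The other members were lower by over 10-fold. mir-290a had means of 1350 in ESCs and 361 in NCs, mir-295 had 882 and 179, and mir-294 had 686 and 187. mir-291b, close in sequence to mir-291a, had only 98.3 and 27.5. The mean of mir-291a was 350 times that of mir-291b in ESCs and 218 times in NCs. mir-292b, the antisense hairpin, was at 0 reads in every ESC library and had 1 read, in library C, among the NC libraries. With 0 reads observed, up to 3 per library remain possible, and no fold was computed for it. Level did not follow position along the transcript. The lowest plus-strand hairpin, mir-291b, lies between the highest, mir-292, and mir-293.

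**Figure D2:**
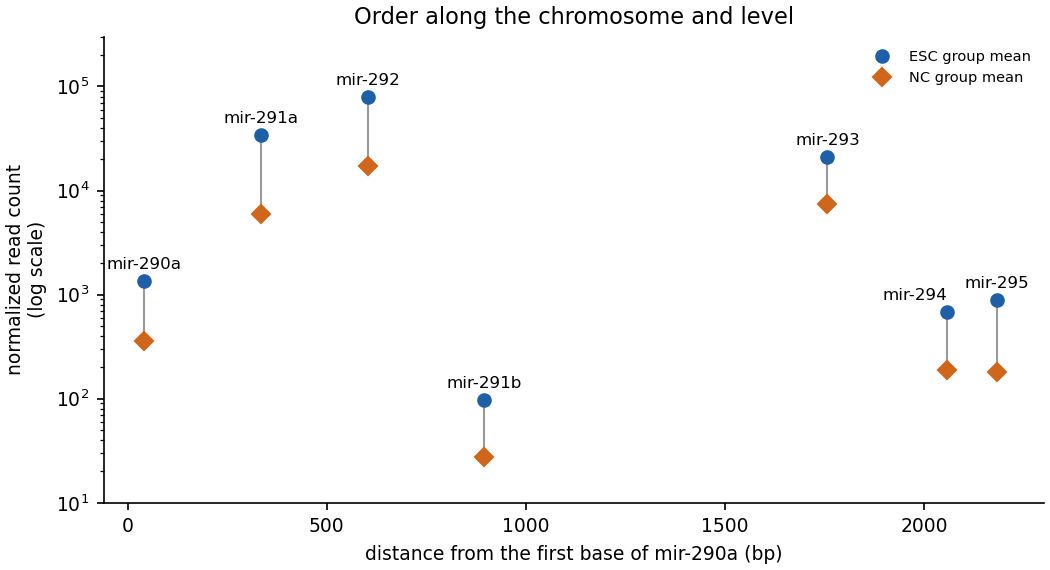
Group means of the 7 plus-strand members (normalized read count, log scale) against the distance of each hairpin's midpoint from the first base of mir-290a in bp. Circles are ESCs and diamonds NCs, joined by a grey line; every ESC mean lies above the NC mean, and mir-291b is lowest in both groups.

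To compare the size of the change among members, the log2 ratio of NC over ESC means was computed with a pseudocount of 1, which understates the change of low miRNAs. All 7 members above the floor of 3 reads per library were at least 2-fold lower in NCs, against 61 of the 634 miRNAs detected in either group (9.62%). Their median log2 ratio was -1.90, and that of all detected miRNAs was 0.07. The ratio was lowest for mir-291a (-2.52), followed by mir-295 (-2.29), mir-292 (-2.20), mir-290a (-1.90), mir-294 (-1.87) and mir-291b (-1.80), and it was highest for mir-293 (-1.50). This order is one of group means, and differences between members in the size of the change were not tested. In libraries A and B alone, the ratio of mir-294 (-2.19) lay below that of mir-295 (-1.99). The whole range was 2.03-fold. Scaling both groups to the same total moved every log2 ratio by -0.48, and by 0.44 without mir-10a, and all 7 remained negative under each scaling.

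**Figure D3:**
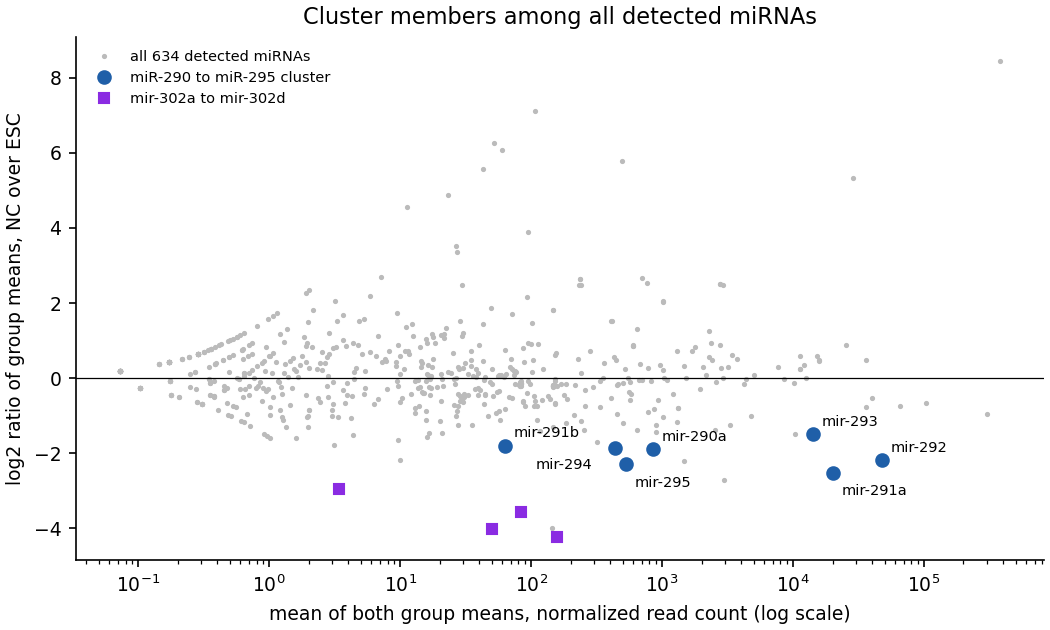
Log2 ratio of group means, NC over ESC, with a pseudocount of 1, against the mean of both group means (log scale) for all 634 detected miRNAs (grey). The 7 cluster members above the floor (blue, named) lie between -1.50 and -2.52 at all levels, and mir-302a to mir-302d (violet squares) lie lower.

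The spread between libraries could be set against these differences for the less abundant members. mir-290a had 1268, 1202 and 1580 normalized counts in ESC libraries A, B and C (1350 ± 202, SD, n = 3) and 369, 297 and 416 in the NC libraries (361 ± 59.8, SD, n = 3). Its lowest ESC library was 2.89-fold above its highest NC library. In limma-voom, a linear model fitted on the reads of all miRNAs resolved in both groups, its log2 fold change was -1.90 ± 0.27 (SE, adjusted p = 0.00515). mir-294 had 802, 671 and 586 in ESCs (686 ± 109, SD, n = 3) and 181, 141 and 239 in NCs (187 ± 49.3, SD, n = 3). The groups lay apart by 2.45-fold at the nearest libraries, and the log2 fold change was -1.86 ± 0.30 (SE, adjusted p = 0.00854, limma-voom). Without ESC library A its adjusted p was 0.0521 (limma-voom).

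mir-295, the last hairpin, had 694, 605 and 1346 in ESCs (882 ± 405, SD, n = 3) and 173, 153 and 212 in NCs (179 ± 30.2, SD, n = 3). Library C was the highest in both groups, and all ESC libraries lay above all NC libraries. The log2 fold change was -2.24 ± 0.36 (SE, adjusted p = 0.00835, limma-voom). mir-291b had 65.3, 65.1 and 164 in ESCs (98.3 ± 57.3, SD, n = 3) and 17.3, 17.4 and 47.9 in NCs (27.5 ± 17.6, SD, n = 3). Libraries A and B of a group were nearly equal and library C was far above them in both groups, and the lowest ESC library was 1.36-fold above the highest NC library. The log2 fold change was -1.98 ± 0.52 (SE, adjusted p = 0.0459, limma-voom), and this call was the least stable. It was lost without ESC library A (adjusted p = 0.103, limma-voom), ESC library B (0.0931), NC library A (0.248) or NC library B (0.169).

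All 4 of these members thus fell in NCs, of 318 miRNAs tested, among which 18 (5.66%) were called lower and 32 (10.1%) higher. With the totals of the resolved reads as library sizes, 25 were called lower and 27 higher, the 4 members included. The ESC libraries were all above the NC libraries in 45 of the 318 (14.2%), the 4 members included. These 4 members hold little of the cluster's signal. Their order in level rested partly on single libraries. mir-290a was above mir-295 and mir-294 in every library of its group. mir-294 was above mir-295 in libraries A and B of ESCs and below it in library C, and in NCs mir-294 was above it in A and C and below it in B. The levels of mir-294 and mir-295 therefore did not differ beyond the spread between libraries in either group.

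**Figure D4:**
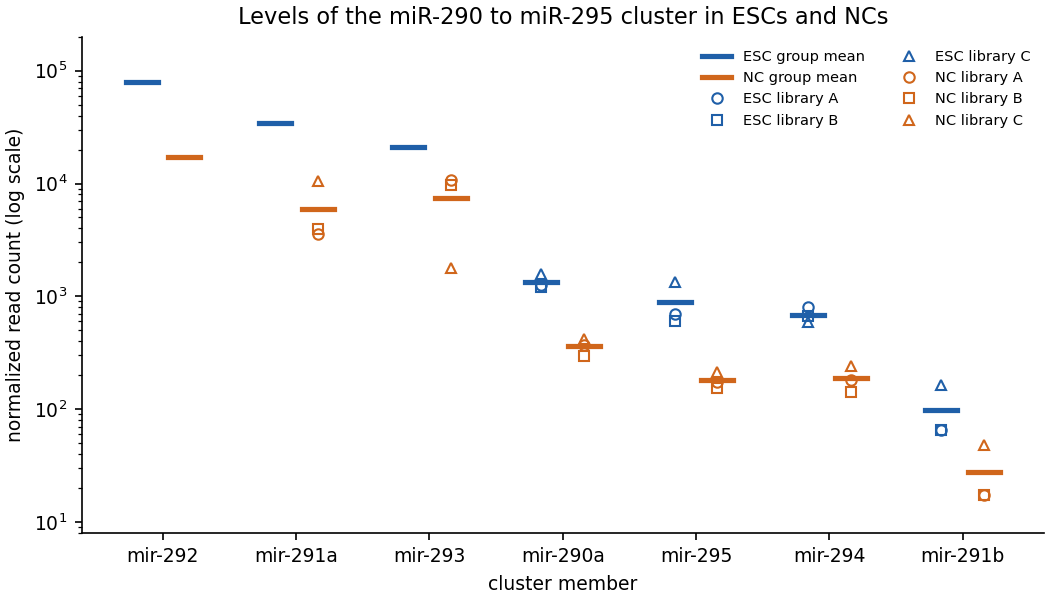
Levels of the 7 members above the floor in normalized read counts (log scale). Horizontal bars are the authors' group means of ESCs (blue) and NCs (orange), and open symbols are libraries A, B and C where the reads were resolved; for mir-290a, mir-295, mir-294 and mir-291b every ESC library lies above every NC library.

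The difference between the deeper and the shallowest libraries touched the members unequally. The log2 ratio of NC over ESC in libraries A and B, and then in library C, was -1.89 and -1.93 for mir-290a. It was -1.91 and -1.78 for mir-291b, -2.19 and -1.29 for mir-294, and -1.99 and -2.67 for mir-295. The ratios of mir-290a and mir-291b were near in both sets of libraries, while in library C that of mir-294 was nearer to 0 and that of mir-295 farther from it. Within library C a single library stands for each group, so that value has no test. Library C of ESCs and library C of NCs share only their rank in size factor and are not known to be matched. With the shallowest library of each group as a covariate, the 4 members were called lower, as they were in the 2 deeper libraries of each group alone. These settings called far more miRNAs lower, 68 of 318 with the covariate and 70 of 326 in the deeper libraries. The main fit called 18 of 318 lower.

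**Figure D5:**
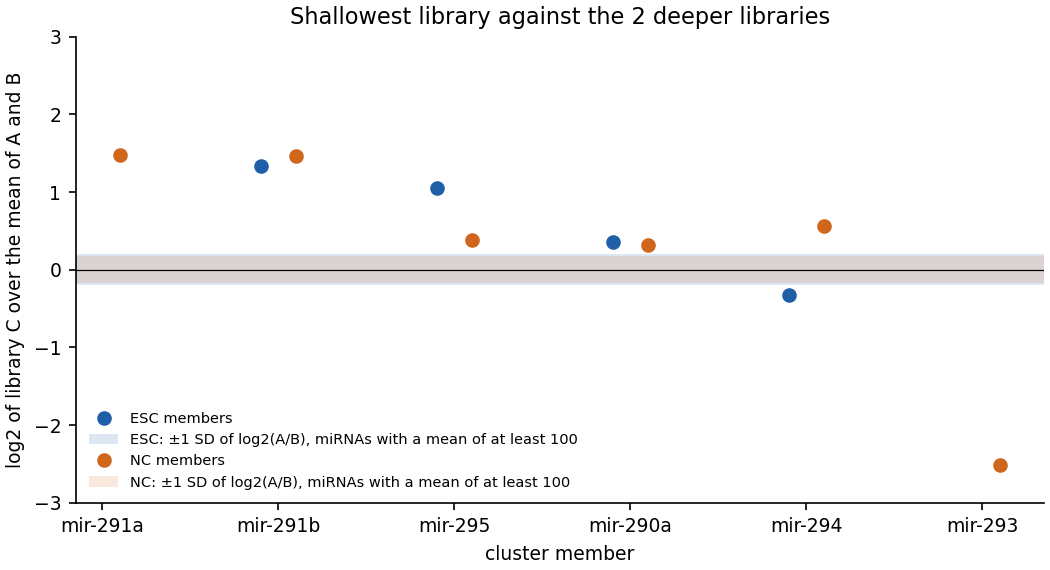
Log2 of library C over the mean of libraries A and B for the members with resolved reads, in ESCs (blue) and NCs (orange); bands are 1 SD of log2(A/B) over miRNAs whose mean was 100 or more. Every member plotted lies outside the bands, from mir-290a in NCs (0.32) to mir-293 in NCs (-2.51). Over the miRNAs of the bands, the SD of the plotted ratio itself was 1.42 in ESCs and 1.13 in NCs, so lying outside is not particular to the cluster. The means of mir-291b are below 100.

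For the abundant members, reads were resolved only in NCs, and there only for mir-291a and mir-293. mir-291a had 3550, 3984 and 10465 normalized counts in NC libraries A, B and C, and mir-293 had 10827, 9671 and 1799. Library C was thus the highest for mir-291a and the lowest for mir-293. For mir-292 in NCs, 2 sets of reads gave the mean. In one, libraries A, B and C held 15835, 14161 and 21625, with log2(A/B) of 0.16. In the other, log2(A/B) was 3.36, where its largest size was 0.50 over the 143 resolved NC miRNAs whose mean was 100 or more. With the first set, chosen after the values were seen, the cluster summed to 30954, 28424 and 34806 normalized counts in NC libraries A, B and C. The nearness of A and B in this sum rests partly on the choice of a set with a small log2(A/B). In the other set mir-292 held 19391, 1891 and 30339 in libraries A, B and C, and no sum was computed for it. Within the sum of the first set, the make-up differed between libraries. mir-293 made up 35.0%, 34.0% and 5.17% of it, mir-291a 11.5%, 14.0% and 30.1%, and mir-292 51.2%, 49.8% and 62.1%. mir-293 was therefore above mir-291a in NC libraries A and B and below it in library C. The ratio of mir-291a to mir-291b was 205, 229 and 219 in the 3 NC libraries, although both miRNAs were far higher in C. The part of reads shared through the common 5p run in that ratio was not tested.

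In ESCs, 9 sets of reads gave the mean of mir-291a, 75 that of mir-292 and 4 that of mir-293, so their libraries are not known. Each possible set was entered in limma-voom in turn, a choice made once the data had been seen. For mir-293 the log2 fold change ranged from -1.64 to -0.97 and the adjusted p from 0.265 to 0.731, so it was called under 0 of the 4 sets. mir-291a was lower in NCs under all 9 sets and called under 4 of them, with adjusted p from 0.00994 to 0.894 (limma-voom). mir-292 was lower under 149 of the 150 pairs of an ESC and an NC set and called under 27, with adjusted p from 0.00118 to 0.995 (limma-voom). A narrower count kept sets in which A and B lay no farther apart than in any resolved miRNA whose mean was 100 or more. Of these sets, mir-291a was called lower under 2 of 3, mir-292 under 10 of 16 and mir-293 under 0 of 1. The fold changes of all these sets were negative. The lower NC means of the 3 members that hold most of the signal therefore stand without an established spread.

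Of the miRNAs outside the cluster with a matched arm, 3 had the seed of a member, and 1 of the 2 tested was called lower. Over all 318 miRNAs tested, 18 (5.66%) were called lower, the share to set beside the counts of this paragraph. miR-302a-3p was not matched, and mir-302a, which was tested and called lower (adjusted p = 0.000461, limma-voom), is not in this count. mir-302b and mir-302d, of the miR-302 and miR-367 cluster that is also active in ESCs, have the seed of miR-291a-3p, miR-294-3p and miR-295-3p in their 3p arms.
miR-302d-3p: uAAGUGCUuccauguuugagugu
mir-302d had 155, 146 and 166 normalized counts in ESCs and 11.3, 10.2 and 15.4 in NCs, a log2 fold change of -3.69 ± 0.29 (SE, adjusted p = 0.000461, limma-voom). mir-302b had means of 6.84 and 0 and too few reads to be tested. The 5 members of the miR-302 and miR-367 cluster summed to 559 in ESCs and 32.3 in NCs, 17.3-fold lower. The 3 tested, mir-302a, mir-302c and mir-302d, were called lower. In NCs none of these 3 reached 10 reads in 3 libraries. They passed the filter through their ESC libraries alone, so these calls are not separate support for the lower sum. The miR-302 and miR-367 cluster held 0.0485% of the ESC signal, against 11.9% for miR-290 to miR-295. Whether the fold of both clusters differed was not tested. mir-350 has the seed of miR-291b-3p in its 5p arm, with means of 74.5 and 101 and an adjusted p of 0.786 (limma-voom).

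The miR-17 type has a seed related to that of the cluster and promotes proliferation in many cells. Of its members mir-17, mir-20a, mir-20b, mir-93, mir-106a and mir-106b, 5 were tested and 0 were called in either direction by limma-voom. Over all 318 miRNAs tested, 18 were called lower and 32 higher, so 0 of 5 is near that share. Standard errors reached 0.76, for mir-106b. The summed means of the miR-17 type were 21103 in ESCs and 22895 in NCs (1.83% and 1.43% of the signal), far below the miR-290 to miR-295 cluster in ESCs and nearer to it in NCs. mir-17 had a log2 fold change of 0.64 ± 0.31 (SE, adjusted p = 0.259, limma-voom). mir-182, the most abundant miRNA of ESCs, had means of 400664 and 207742 (log2 ratio -0.95), and mir-183 and mir-96 of the same cluster had log2 ratios of -0.78 and -1.04.

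Among the 151 miRNAs outside the cluster with an ESC mean of at least 100, the ratio of group means nearest to that of the summed cluster was that of mir-205 (log2 ratio -2.20, a gap of 0.07). It was followed by mir-210 (-1.70), mir-150 (-2.72), mir-181c (-1.49) and mir-672 (-1.43). The likeness rests on 2 group means and says only that the folds were near. These miRNAs were picked by that ratio, so the tests on them are not independent of the choice. mir-205 had 1788, 1473 and 3990 normalized counts in ESCs and 377, 486 and 711 in NCs (adjusted p = 0.0273, limma-voom). mir-210 was also called lower (adjusted p = 0.00912), while mir-150 (0.347) and mir-672 (0.0784) were not in limma-voom. mir-181c was not tested, because its ESC reads were not resolved. mir-150 had 1154, 1028 and 13160 normalized counts in ESC libraries A, B and C and 347, 371 and 1611 in the NC libraries, with library C far the highest in both groups.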

How the data were processed

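The deposited table, made by the authors, held for each miRNA gene the signal as a group mean of normalized counts, and their own fold changes and p-values, which were not used. The submitters' processing notes named DESeq and mm10; adapter removal, aligner, annotation and the rule for shared reads were not given in the sources used here. Library reads were found by enumerating whole numbers that gave each mean, deposited to 10 decimals, for means up to 20000 (members, up to 100000). The reads were tested in limma 3.58.1 (R 4.3.3), weighted by voom, after removal of miRNAs that did not reach 10 reads in 3 libraries (in 2 for groups reduced to 2), with Benjamini-Hochberg adjustment and a threshold of 0.05. p-values set the difference between groups against the spread between these libraries, pooled in part over all miRNAs tested. The resolved reads per library were 104323 to 401909. Intervals were not given, and floors of 3 reads cover counting error only. Named miRNAs were the members, seed relatives, the miR-302 and miR-367 cluster, the miR-17 type, mir-182, mir-183 and mir-96, the largest of each group, the cell type checks and the 5 nearest in ratio. Members and lists were chosen with earlier results of these data known. Alternatives covered pseudocount, scaling, denominators, filters, covariates and left-out libraries. Python 3.11.15, numpy 2.4.6 and pandas 2.3.3 were used.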

Additional observations from a re-analysis of the deposited data

How the results depend on the processing

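The log2 ratios of the summed cluster and of its 7 members kept their direction under every pseudocount and scaling tried. The share of the signal moved with the denominator, to 18.25% in ESCs without the largest miRNA of each group, and to 3.70% in NCs without mir-10a, which is the largest there. limma-voom called 50 miRNAs, against 30 with at least 10 reads in every library, 143 with the shallowest libraries as a covariate, 163 in the 2 deeper libraries of each group, and from 17 to 53 when 1 library was left out. The number of members called lower was 4, and from 2 to 4 when 1 library was left out, with 2 without ESC library A; the cause was not tested. Adjusted p-values over the 12 alternatives of limma ranged from 7.37e-08 to 0.0398 for mir-290a, from 5.79e-08 to 0.0432 for mir-295, from 5.79e-08 to 0.0521 for mir-294 and from 1.42e-05 to 0.248 for mir-291b. The lowest value of each came from the fit on the 2 deeper libraries of each group, which called 163 of 326 miRNAs tested. mir-291b also lost its call with at least 10 reads in every library (0.0562), without the filter (0.0733) and in limma-trend (0.0806). No paired analysis was possible because the labelled replicate numbers could not be matched to libraries A, B and C. The depth limits mir-292b, mir-302b and mir-124-1, which were near the floor.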
